A study of Mus musculus with 3 samples.

Results

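The bile acid synthesis and transport genes are 9 liver genes: the enzymes Cyp7a1, Cyp7b1, Cyp8b1 and Cyp27a1, the nuclear receptors Nr1h4 and Nr0b2, and the transporters Slc10a1, Abcc2 and Abcc3. Their members were all probe sets annotated with 1 of these symbols, which gave 11 of the 12488 probe sets on the array, covering 8 of the 9 genes. The probe sets were found by gene symbol alone, and the list of genes was drawn up with earlier results of these data known. No probe set in the annotation used carried the symbol Cyp27a1, which is not analysed here.

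Gene expression was measured in liver RNA from male mice homozygous for a disrupted apolipoprotein E gene, on a C57BL/6JxOLA129 background, which carry a high plasma cholesterol. At 3 months of age, 29 mice were assigned to 3 diets that supplied 30% of the energy as fat and were fed for 12 weeks. The control diet (10 mice) contained linoleic acid at 1.0% by weight. The other diets contained the same amount of a conjugated linoleic acid (CLA), either the c9,t11 isomer (10 mice) or the t10,c12 isomer (9 mice), so that the isomers, whose conjugated double bonds sit at different positions with a different geometry, are compared at a matched dose and time. The design text calls the diets semi-purified and the sample labels call them western, a difference that was not resolved. There was 1 array per diet, so no difference between diets has a replicate check or a p-value. The sources used here do not say whether the RNA on an array came from a single mouse or several.

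Bile acids are made from cholesterol in hepatocytes, and their synthesis is the main route by which the body disposes of cholesterol. In the classic pathway Cyp7a1 catalyses the first and rate-limiting step and Cyp8b1 adds the hydroxyl group that makes cholic acid, while in the alternative pathway Cyp27a1 hydroxylates the side chain and Cyp7b1 then acts on the oxysterol product. Bile acids activate the receptor encoded by Nr1h4 (FXR), which induces Nr0b2 (SHP), a repressor of Cyp7a1 and Cyp8b1. Slc10a1 (NTCP) takes bile acids up from portal blood, Abcc2 (MRP2) exports conjugated organic anions into bile, and Abcc3 (MRP3) exports conjugates back into blood.

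Promoter sequences are shown for 4 members whose signals lay on the same side of control on both CLA arrays, Nr0b2, Cyp8b1 and Slc10a1 on the lower side and Abcc2 on the higher side. Nr1h4 also lay on the higher side, by log2 differences of 0.23 and 0.0009, the latter changing sign with the scaling. It has an entry too, but its sequence is not shown. The RefSeq promoter table (GRCm38.p6) held entries for 6 of the 9 genes, and Cyp7a1, Cyp7b1 and Abcc3 were not among them. Each sequence is the 250 bases upstream of the annotated start, read 5′ to 3′ on the gene's strand. Nr0b2 lies on the plus strand (chr4:133553126-133553375), Cyp8b1 on the minus strand (chr9:121916306-121916555), Slc10a1 on the minus strand (chr12:80968706-80968955, the outer of its 2 listed starts) and Abcc2 on the plus strand (chr19:43782058-43782307). Capitals mark matches to TATAAA, to AGGTCA, the half-site of nuclear receptors, and to TCAAGG, the core of the site of the nuclear receptor NR5A2, on either strand.
Nr0b2: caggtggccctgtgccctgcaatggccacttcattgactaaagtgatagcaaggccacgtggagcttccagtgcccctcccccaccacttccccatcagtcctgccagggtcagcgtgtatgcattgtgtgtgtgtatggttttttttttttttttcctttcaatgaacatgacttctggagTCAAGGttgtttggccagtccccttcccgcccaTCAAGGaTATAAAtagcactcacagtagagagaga
Cyp8b1: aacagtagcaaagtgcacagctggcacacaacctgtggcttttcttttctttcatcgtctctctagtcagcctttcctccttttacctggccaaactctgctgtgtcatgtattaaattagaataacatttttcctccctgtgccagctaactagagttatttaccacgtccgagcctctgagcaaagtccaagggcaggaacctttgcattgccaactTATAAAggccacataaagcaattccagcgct
Slc10a1: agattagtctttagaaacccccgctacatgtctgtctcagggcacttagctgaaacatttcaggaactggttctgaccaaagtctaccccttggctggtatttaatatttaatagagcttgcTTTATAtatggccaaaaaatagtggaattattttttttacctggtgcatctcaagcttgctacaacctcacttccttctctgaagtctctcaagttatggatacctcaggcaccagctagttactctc
Abcc2: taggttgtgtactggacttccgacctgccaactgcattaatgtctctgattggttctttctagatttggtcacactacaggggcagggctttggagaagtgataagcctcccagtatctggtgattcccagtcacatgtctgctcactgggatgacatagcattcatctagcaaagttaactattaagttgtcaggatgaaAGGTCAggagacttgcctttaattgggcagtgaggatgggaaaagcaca

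The promoters of Nr0b2 and Cyp8b1 both held TATAAA on the gene strand, with the first base 28 and 31 bases before the start. A match 20 to 40 bases before the start was found in 1.99% of the 32851 promoters in the table. Slc10a1 held it on the opposite strand, 128 bases before the start, and 12.4% of promoters held it on either strand at any place in the window. Nr0b2 also held TCAAGG at 68 and 35 bases before its start. That core, chosen for the search after the Nr0b2 sequence was seen, occurred in 12.5% of all promoters. The window of Abcc2 held AGGTCA, 49 bases before the start, a half-site present in 14.0% of promoters. Of the 7 member entries, 3 held it. The others were Nr1h4, on the opposite strand 214 bases before the start, and the inner start of Slc10a1, at 87 bases, whose sequences are not shown. None of the 7 member entries held CAAGGTCA, the inverted repeat AGGTCANTGACCT, or the direct repeats AGGTCANAGGTCA and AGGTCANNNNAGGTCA in this window, and these occurred in 1.33%, 0.00609%, 0.0335% and 0.0152% of all promoters. The half-site is part of each of those longer motifs. These matches describe the sequence only.

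Values are deposited MAS5 signals, hybridisation intensities on a linear scale, and differences are given as log2 differences of signal. A signal was taken as measured above a floor of 490.3, the median of all signals on the 3 arrays. The size used for counting was 2-fold, a log2 difference of 1. As a technical yardstick, pairs of probe sets of the same gene gave the SD of a single log2 difference, which was 0.50 for c9,t11-CLA against control (679 pairs), 0.39 for t10,c12-CLA against control (726 pairs) and 0.49 between the isomers (707 pairs). It covers measurement and probe design, not variation between mice. The brightest probe set reached 135007 on c9,t11-CLA, against 70778 on control and 71111 on t10,c12-CLA. The 3′ to 5′ signal ratio of beta-actin, which rises as RNA degrades, was 1.40, 1.89 and 1.35 on control, on c9,t11-CLA and on t10,c12-CLA, and that of Gapdh was 1.06, 0.98 and 0.78. All 7 hepatocyte markers were above the floor on all 3 arrays, and their summed signal was 162048 on control, 342143 on c9,t11-CLA and 173285 on t10,c12-CLA. On c9,t11-CLA against control 5 of the 7 were higher, where 52.7% of the measured probe sets of the array were. The higher ones included Cyp2e1 at 3.69 and Alb at 1.83, and the 2 lower ones were Ttr at -0.94 and Ass1 at -0.52. The part of these array differences in the results was not tested.

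Of the 11 member probe sets, 10 were above the floor on all 3 arrays. The exception was a Slc10a1 probe set (100340_at), with signals of 53.4, 67.6 and 15.6 on control, on c9,t11-CLA and on t10,c12-CLA, for which no difference is given. In bulk liver RNA, fewer cells of a type and less RNA per cell cannot be told apart.

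**Figure D1:**
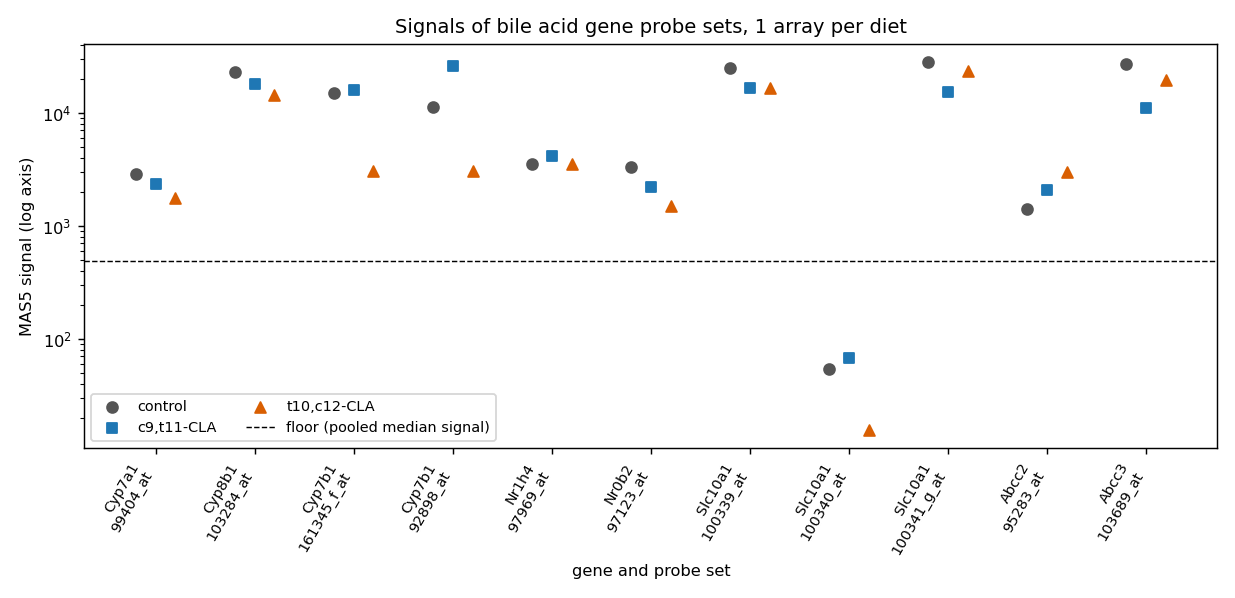
MAS5 signal (log axis) of the 11 probe sets of 8 bile acid genes on the arrays of the 3 diets, 1 point per array. The dashed line is the floor of 490.3. Both Cyp7b1 probe sets stood at about 3023 to 3032 on the t10,c12-CLA array, below their control signals of 11297 and 14871.

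Both measured enzymes of the classic pathway had their highest signal on control and their lowest on t10,c12-CLA. Cyp7a1 gave 2859.9 on control, 2326.5 on c9,t11-CLA and 1739 on t10,c12-CLA. Its log2 difference from control was -0.30 on c9,t11-CLA and -0.72 on t10,c12-CLA, 1.23-fold and 1.64-fold lower. Cyp8b1 gave 23005, 17764 and 14288 in the same order. Its log2 differences from control were -0.37 and -0.69. With equal array medians the c9,t11-CLA differences were -0.49 for Cyp7a1 and -0.57 for Cyp8b1, the latter past 1 yardstick SD of 0.50. For both enzymes the c9,t11-CLA difference as deposited was within 1 yardstick SD, the t10,c12-CLA difference was 1.86 and 1.78 yardstick SDs, and the gap between the isomers, -0.42 and -0.31, was within 1 SD. Neither enzyme reached 2-fold in any comparison.

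Cyp7b1, the oxysterol 7α-hydroxylase of the alternative pathway, had the largest differences of all members on t10,c12-CLA, against control and against the other isomer. Its probe set 92898_at gave 11297 on control, 25809 on c9,t11-CLA and 3023 on t10,c12-CLA. Its second probe set, 161345_f_at, whose identifier marks possible cross-hybridisation within a gene family, gave 14871, 15924 and 3032. Both probe sets were thus low on the t10,c12-CLA array and at or above the control signal on the c9,t11-CLA array.

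Against control, the t10,c12-CLA signals of Cyp7b1 were 3.74-fold and 4.91-fold lower, log2 differences of -1.90 and -2.29. Among the 5037 probe sets measured in that comparison these ranked 3rd and 2nd from the lowest. On c9,t11-CLA the probe sets disagreed. The first stood at 1.19 and the second at 0.10 (-0.10 with equal array medians), a gap of 1.09 where the SD of such gaps over all pairs was 0.71. With array medians made equal the first stood at 0.9965, just short of 2-fold. Between the isomers, Cyp7b1 was 8.54-fold and 5.25-fold lower on t10,c12-CLA than on c9,t11-CLA. The log2 differences of -3.09 and -2.39 ranked 1st and 4th from the lowest of 5017 probe sets. Of the 4721 probe sets above the floor on all 3 arrays, 2 were at least 2-fold higher than control on c9,t11-CLA and at least 2-fold lower on t10,c12-CLA. They were 92898_at and a probe set of Egfr, the epidermal growth factor receptor. The reverse pattern was met by 5 probe sets. With equal array medians neither 92898_at nor the Egfr probe set reached 2-fold on c9,t11-CLA.

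**Figure D2:**
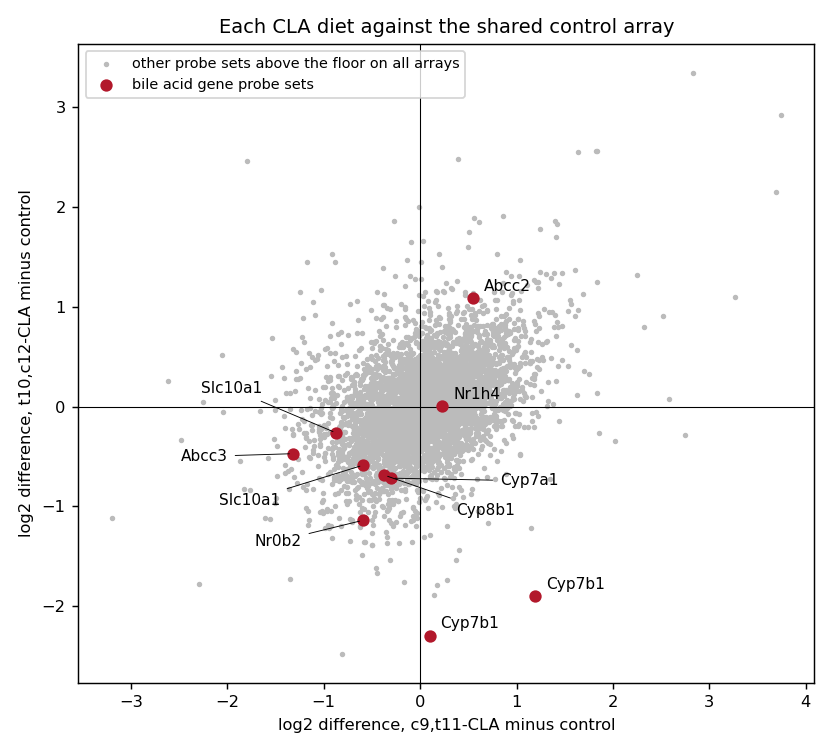
Log2 difference from control on the c9,t11-CLA array (horizontal) and the t10,c12-CLA array (vertical) for the 4721 probe sets above the floor on all arrays, with the 10 bile acid gene probe sets in red. Both axes subtract the same control array, so the shape of the cloud is not a result; the Cyp7b1 probe sets lie near the lower edge, at -1.90 and -2.29 on the vertical axis.

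The receptor and the repressor of the feedback loop differed from each other. Nr1h4, the bile acid receptor, gave 3498.6 on control, 4102 on c9,t11-CLA and 3500.8 on t10,c12-CLA. Its log2 differences from control were 0.23 and 0.0009 (-0.09 with equal array medians), both within 1 yardstick SD, and it varied least of the measured members. Nr0b2, the repressor that this receptor induces, gave 3288 on control, 2181 on c9,t11-CLA and 1492 on t10,c12-CLA. Its signals followed the order of Cyp7a1 and Cyp8b1, the genes it represses. The log2 difference of Nr0b2 from control was -0.59 on c9,t11-CLA, 1.18 yardstick SDs. On t10,c12-CLA it was -1.14, 2.20-fold lower and 2.95 yardstick SDs, which ranked 49th from the lowest of 5037 probe sets. The isomers differed by -0.55, 1.11 yardstick SDs.

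The uptake transporter Slc10a1 was lower than control on both CLA arrays by each of its 2 measured probe sets. Probe set 100339_at gave 24984 on control, 16598 on c9,t11-CLA and 16635 on t10,c12-CLA. Probe set 100341_g_at, whose identifier marks probes shared with another probe set, gave 27848, 15236 and 23180.3. Their log2 differences from control were -0.59 and -0.87 on c9,t11-CLA and -0.59 and -0.26 on t10,c12-CLA. The larger of these, -0.87, was -1.07 with equal array medians, past 2-fold. The probe sets disagreed on the isomers, with differences of 0.0032 (-0.05 after quantile normalization) and 0.61.

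The exporters moved apart. Abcc2, the canalicular exporter, gave 1404 on control, 2057 on c9,t11-CLA and 2979 on t10,c12-CLA. Its log2 difference was 0.55 on c9,t11-CLA and 1.08 on t10,c12-CLA, 1.46-fold and 2.12-fold higher. With equal array medians these were 0.36, within 1 yardstick SD, and 0.9952, just short of 2-fold. Abcc3, the basolateral exporter, gave 27162 on control, 10881 on c9,t11-CLA and 19577 on t10,c12-CLA. Abcc3, like the Slc10a1 probe set with the marked identifier, was lowest on the c9,t11-CLA array. The unmarked measured probe set of Slc10a1 was nearly equal on the CLA arrays. Its difference between the isomers was 0.0032, or -0.05 with quantile normalization. Cyp7a1, Cyp8b1, Cyp7b1 and Nr0b2 were instead lowest on t10,c12-CLA. The log2 difference of Abcc3 from control was -1.32 on c9,t11-CLA, 2.50-fold lower and 42nd from the lowest of 4932 probe sets, and -0.47 on t10,c12-CLA. Between the isomers Abcc3 was 1.80-fold higher on t10,c12-CLA, a log2 difference of 0.85 or 1.71 yardstick SDs.

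**Figure D3:**
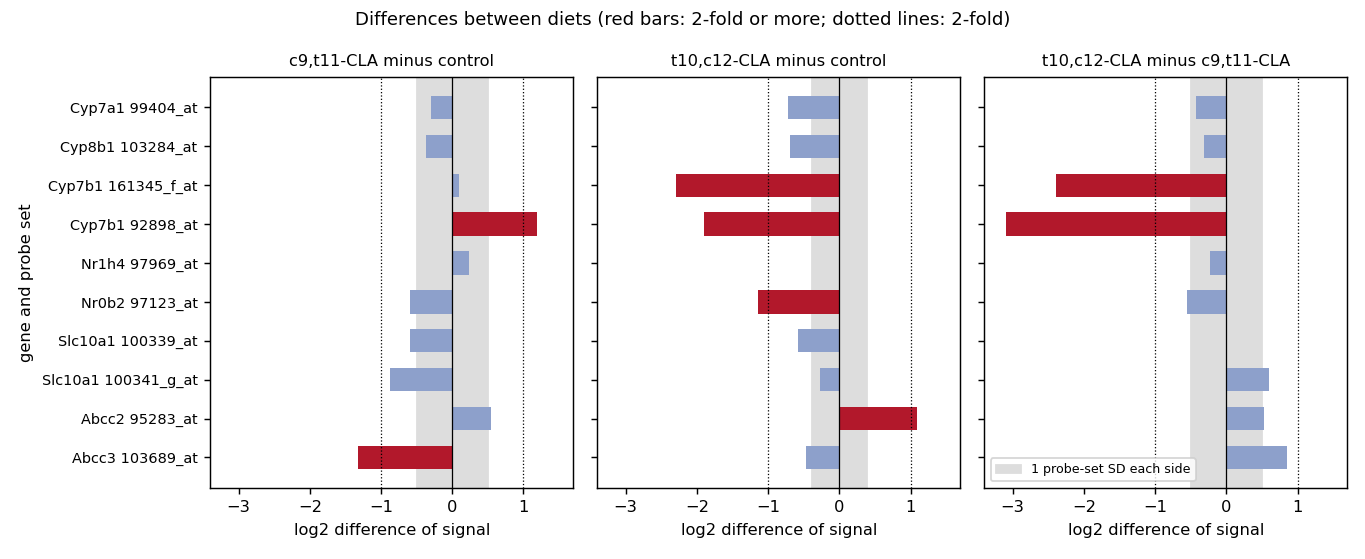
Log2 differences of signal for the 10 measured probe sets in the 3 comparisons. Grey bands span 1 yardstick SD each side of 0 (0.50, 0.39 and 0.49), dotted lines mark 2-fold, and red bars reach 2-fold: 2 probe sets in the first comparison, 4 in the second and 2 in the third.

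Counted together on c9,t11-CLA against control, 1 member probe set was at least 2-fold higher (Cyp7b1) and 1 at least 2-fold lower (Abcc3) of 10 measured. Of the 4932 measured probe sets of the array, 6.00% were past 2-fold, 3.24% higher and 2.76% lower. The members' median log2 difference was -0.34 and that of all measured probe sets 0.03, and 6 members lay below 0 where 47.3% of all did. Over the array 160 probe sets were 2-fold higher and 136 lower. With equal array medians these were 92 and 256, with 0 member probe sets higher and 2 lower (Abcc3 and 100341_g_at of Slc10a1), and the median of all moved to -0.15, so that small differences on the c9,t11-CLA array depend on the scaling.

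On t10,c12-CLA against control, 4 of 10 member probe sets from 3 genes were past 2-fold, where 4.05% of 5037 were (2.18% higher, 1.87% lower). Of these, 3 were lower (both of Cyp7b1, and Nr0b2) and 1 higher (Abcc2). The median of the members was -0.64 and that of all probe sets -0.0038, and 8 members lay below 0 where 50.3% of all did. Over the array 110 probe sets were higher and 94 lower, or 85 and 134 with equal medians, under which 0 members were higher and 3 lower. With the floor raised to the 75th percentile, a signal of 1510.93, Nr0b2 and Abcc2 dropped out. All Cyp7b1 signals lay above it, and a floor alters no log2 difference, so the Cyp7b1 values could not change.

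Between the isomers, 2 of 10 member probe sets were past 2-fold, both of Cyp7b1 and both lower on t10,c12-CLA, where 6.08% of 5017 were (3.43% higher, 2.65% lower). The median was -0.27 for the members and -0.05 for all, and 6 members lay below 0 where 54.3% of all did. Over the array 172 probe sets were higher and 133 lower on t10,c12-CLA, or 230 and 87 with equal medians. Cyp7b1 and Slc10a1 each contribute 2 of the 10 probe sets, and both comparisons with control use the same control array.

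Genes for the later and side steps of synthesis had a lower median on c9,t11-CLA than on t10,c12-CLA. Of 19 listed genes, 12 were on the array and 11 probe sets were measured, and 7 of them lay below control on each CLA diet, where 47.3% of the array on c9,t11-CLA and 50.3% on t10,c12-CLA did. Their median log2 difference was -0.47 on c9,t11-CLA and -0.18 on t10,c12-CLA. Scp2, which encodes the sterol carrier and peroxisomal thiolase that shortens the side chain, gave 46286 on control, 14676 on c9,t11-CLA and 44971 on t10,c12-CLA by 93278_at. That was a log2 difference of -1.66 on c9,t11-CLA, but its second probe set stood at -0.47. Hsd17b4, a peroxisomal enzyme of the same side-chain steps, gave 26272, 14653 and 32412, a difference of 1.15 between the isomers, and with equal array medians it stood at -1.04 on c9,t11-CLA against control. Akr1c6, a hydroxysteroid dehydrogenase, gave 41899, 58996 and 30973. Hsd3b7, the enzyme after the 7α-hydroxylases, stood at -0.42 and -0.41 on the CLA diets.

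Genes of conjugation included 5 measured of 8 listed, and none was 2-fold from control on either CLA diet. Cyp2c70, which makes the muricholic acids of mice, gave 10076 on control, 19980.2 on c9,t11-CLA and 8792 on t10,c12-CLA. Its log2 difference was 0.99 on c9,t11-CLA (1.03 with quantile normalization) and -1.18 between the isomers, so that Cyp2c70, like 92898_at of Cyp7b1, was highest on c9,t11-CLA. Slc27a5, the bile acid CoA ligase, gave 29790 on control against 17478 and 15510 on the CLA diets, log2 differences of -0.77 and -0.94. Baat, which joins bile acids to taurine, stood at -0.33 and -0.29. Cyp3a11, a hydroxylase of bile acids and drugs, gave 42017, 56670 and 51339. With equal array medians Slc27a5 stood at -0.96 and -1.03, the latter past 2-fold. Slc27a5, Baat, Hsd3b7 and Abcg2 were named after their values were seen.

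Of 19 other transporters listed, 8 were on the array and 3 were above the floor on all arrays, Abcb4, Abcc6 and Abcg2. None differed 2-fold. Abcg2, an exporter of the canalicular membrane, gave 4864 on control, 2717 on c9,t11-CLA and 3831 on t10,c12-CLA, log2 differences of -0.84 and -0.34, and -1.04 on c9,t11-CLA with equal array medians. Abcb4, which moves phospholipid into bile, gave 22593 on control, 18675 on c9,t11-CLA and 23910 on t10,c12-CLA. The bile salt export pump Abcb11 had no probe set in the annotation used.

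Among 27 other regulators listed, 21 were on the array and 18 probe sets were measured against control, with none past 2-fold on c9,t11-CLA and 1 on t10,c12-CLA. It belonged to Rxra, the partner receptor of Nr1h4, which gave 1375 on control, 2681 on c9,t11-CLA and 2814 on t10,c12-CLA by 92234_at, log2 differences of 0.96 and 1.03. Its second probe set stood at 0.46 and 0.49. Nr1i3, the receptor CAR, was lower by each of its 3 probe sets, at -0.23, -0.84 (-1.04 with equal array medians) and -0.52 on c9,t11-CLA and -0.25, -0.74 and -0.84 on t10,c12-CLA. With equal array medians and with quantile normalization the first Rxra probe set stood at 0.94 and 0.98 on t10,c12-CLA, short of 2-fold. Over the 4 lists together, 1 of 37 measured probe sets was past 2-fold in each comparison with control, where 6.00% (c9,t11-CLA) and 4.05% (t10,c12-CLA) of the array were, and 3 of 41 between the isomers, where 6.08% were. These counts are near the share of the whole array.

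**Figure D4:**
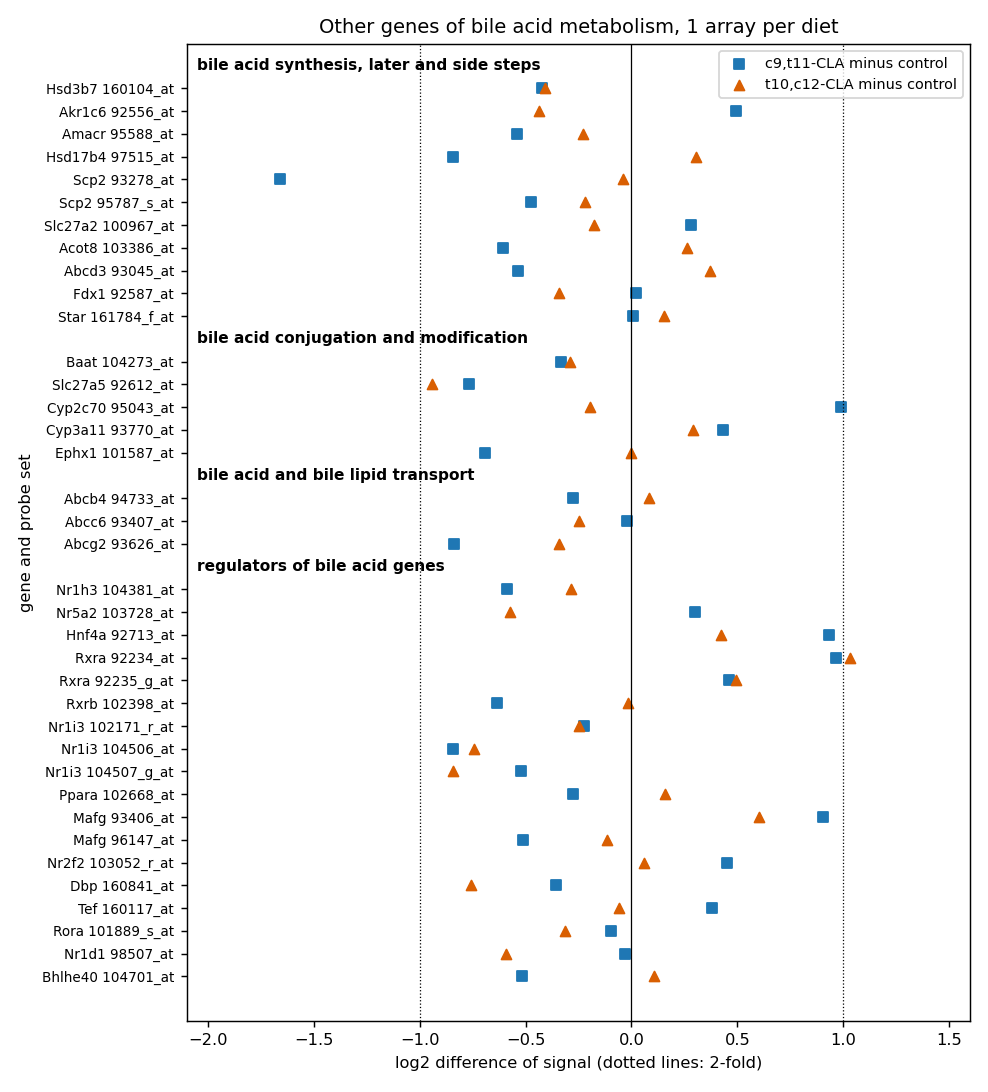
Log2 difference from control on c9,t11-CLA (squares) and t10,c12-CLA (triangles) for the other bile acid genes above the floor on all arrays, 1 row per probe set. On c9,t11-CLA the value of 93278_at of Scp2, -1.66, is the only one past a dotted 2-fold line, and on t10,c12-CLA that of 92234_at of Rxra, 1.03 (0.94 with equal array medians and 0.98 with quantile normalization).

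The probe sets most like each varying member were those at the smallest distance in the 2 log2 differences from control, among the 4721 above the floor on all 3 arrays. For Cyp7b1 (92898_at) they belonged to Egfr, Gstm1 and Ces1c, at distances of 0.69, 0.88 and 0.90 log2 units. For its second probe set they were 2 probe sets of Lifr and 1 of Keg1, at 0.41, 0.51 and 0.59. The neighbours of the other members lay closer, at 0.14 log2 units or less. Those of Nr0b2 were Itih1, Igfals and Tomm70a, at 0.07 to 0.09. Those of Abcc2 were Mrps18a, Gsta2 and Dusp1, at 0.02 to 0.07. Abcc3 lay closest to Slc25a20, the mitochondrial acylcarnitine carrier, at 0.01, then to Slc22a5, the carnitine transporter, at 0.08 and Eif4e2 at 0.14. Slc25a20 gave 17480.4 on control, 6993 on c9,t11-CLA and 12480 on t10,c12-CLA.

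Cyp7b1 is also one of the genes expressed more in male than in female mouse liver. Without Cyp7b1, 4 of 8 measured probe sets of that list were 2-fold higher and none lower on c9,t11-CLA, where 3.24% of the array was higher. These were 3 probe sets of Egfr, at 1.18, 1.15 and 1.86, and 1 of Mup5, a major urinary protein gene, at 1.01. Equal array medians lower every c9,t11-CLA difference from control by 0.20. The values of 1.18, 1.15 and 1.01 then fall short of 2-fold, and only that of 1.86, from a marked probe set, stays past it. On t10,c12-CLA 1 of 7 was 2-fold lower and none higher, where 1.87% of the array was lower. It was an Egfr probe set at -1.22, while the others of Egfr stood at -0.21 and -0.27, Cyp2d9 at -0.31, Cyp4a12b at -0.02, Serpina1e at 0.34 and Mup5 at 0.87. Between the isomers 4 of 7 were 2-fold lower on t10,c12-CLA and 0 higher, where 2.65% of the array was lower. They were the 3 Egfr probe sets and Cyp2d9, at -1.27, while 2 of the 7 lay above 0. Hsd3b5 of that list gave 7239 on control, 10059 on c9,t11-CLA and 170.7 on t10,c12-CLA. It was at least 14.8-fold lower on t10,c12-CLA than on control.

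Markers of cells other than hepatocytes were set beside these values. Of 7 bile duct markers on the array, 1 was above the floor on any array (Aqp1), and Krt7, Krt19, Epcam, Cftr, Prom1 and Slc5a1 were not. The summed signal of their 12 probe sets was 3840.1 on control, 3056 on c9,t11-CLA and 3514 on t10,c12-CLA. Macrophage markers summed to 84857, 70790.0 and 110710, with 11 of 12 genes above the floor on at least 1 array. On t10,c12-CLA against control 10 of 13 measured macrophage probe sets were higher and 3 lower, where 50.3% of the array was lower. C1qc gave 23148 against 12400 on control, and Lyz2 (100611_at) 11939 against 16171. Stellate cell markers summed to 26909, 26293 and 43801, with all 8 genes above the floor on at least 1 array. On t10,c12-CLA against control 7 of their 10 measured probe sets were higher and 3 lower, where 50.3% of the array was lower. Bgn (96049_at) gave 20434 against 9042.5 on control, and Reln (96591_at) 2374 against 3671. Endothelial markers summed to 11954, 12276 and 16009, with all 7 genes above the floor on at least 1 array. Sums of the pancreatic list were 6869, 6551 and 6667, with all 4 genes above the floor, and of the ileal list 9229.9, 8726 and 11787, with 3 of 6. The part of these marker differences in the member values was not tested.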

How the data were processed

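Liver RNA of mice on 3 diets was hybridised to 1 Affymetrix array per diet, from 8 µg of total RNA per the labels' protocols. The authors deposited MAS5 signals, an intensity on a linear scale, per the submitters' processing notes. Trimmed of 2% at each end, the arrays had equal means of 1501, and signals were used without further scaling. Gene symbols came from the platform annotation, updated through Entrez identifiers for 10817 of 10833 probe sets with 1 symbol; others and 66 array controls were left out. Every probe set was kept separately. Depth has no meaning for arrays, and their number limits the precision. The 9 members, the lists, the 2-fold size, the floor and the rule for named genes were chosen with earlier results of these data known. That rule named all members and the 3 nearest patterns. From the bile acid and male-biased lists it named genes past 2-fold and the brightest gene of each list. Cell type markers were not named by that rule, and some of them past 2-fold are not named. Alternatives were array scaling, floor, pseudocount, 1 probe set per gene and leaving out marked probe sets. Fold counting was checked on simulated data with large changes in bright probe sets, which does not measure how often noise passes 2-fold on these arrays. Python 3.11.15, numpy 2.4.6, pandas 2.3.3, scipy 1.17.1 and matplotlib 3.10.9 were used.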

Additional observations from a re-analysis of the deposited data

How the results depend on the processing

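Under equal array medians and quantile normalization, 28 of 30 member log2 differences kept their sign, and 27 and 30 kept their side of 2-fold. With a pseudocount of 50 all 30 kept both, with a largest shift of 0.0265. The other alternatives change only which probe sets are counted. They alter no log2 difference, so they could not change a sign or a side of 2-fold. Member probe sets past 2-fold on t10,c12-CLA against control were 2 of 8 with the floor at the 75th percentile (3.58% of the array). Between the isomers the count was 1 of 8 with 1 probe set per gene (6.02% of the array). It was also 1 of 8 without marked probe sets (5.82%), since each setting removes a Cyp7b1 probe set. With equal array medians the members' median on c9,t11-CLA against control was -0.53, since that scaling lowers every value of the array. The count over the wider lists on c9,t11-CLA was 4 of 37 with equal array medians (7.03% of the array). It was 2 of 37 with quantile normalization (5.64%) and 3 of 46 when the 25th percentile set the floor (14.6%). On t10,c12-CLA it was 5 of 46 with that floor (8.74% of the array). With quantile normalization it was 0 of 38 there (3.93%), and with the 75th percentile 0 of 25 (3.58%). With 1 probe set per gene it was 0 of 32 on t10,c12-CLA (3.92%) and 0 of 32 on c9,t11-CLA (5.76%). No replicate could be left out and no paired analysis was possible because each diet had 1 array. Without detection calls, signals near the floor cannot be told from background.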

Other observations

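Some genes of bile acid signalling crossed the floor of 490.3 between diets, so that their differences are bounds. Nr1i2, the xenobiotic and bile acid receptor PXR, gave 172.4 on control, 1450 on c9,t11-CLA and 841 on t10,c12-CLA, at least 2.96-fold and 1.72-fold higher on the CLA arrays. Fabp6, the bile acid binding protein of the ileum, gave 153.6, 837.5 and 577.4 by 99977_at. Its second probe set, 160886_i_at, and Slc10a2, the ileal bile acid uptake transporter, were not above the floor on any array. Fgfr4, the hepatic receptor for the ileal hormone encoded by Fgf15, gave 529.1 on control, 298 on c9,t11-CLA and 127.7 on t10,c12-CLA, at least 1.08-fold lower on both CLA arrays. The probe sets of Nfil3, a clock-controlled repressor, disagreed. One gave 891.5, 81.3 and 109.5 and the other 483 (below the floor), 870.8 and 604.2 in that order of diets. These genes were named after their values were seen.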
